A study of Mus musculus with 12 samples.

Results

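Ribosome biogenesis genes encode the proteins that make, modify and assemble the parts of the ribosome. The 40 genes described here were taken by name, as those whose symbol is carried by probes of the array that are not control spots, and they were followed in 4 treatment groups of mouse aorta. The array held 58 probes for them, of which 57 could be tested, and all 40 genes had a tested probe among 20026 gene names tested in all. Their symbols and roles are background knowledge, and the rule that picks them uses no measured value. The list itself was chosen with earlier results of these data known. They comprise 3 proteins of the box C/D particles that guide methylation of ribosomal RNA, 4 of the box H/ACA particles that guide its pseudouridylation, 4 subunits of RNA polymerase I, 6 abundant nucleolar proteins, 10 factors of the small subunit and 13 of the large subunit.

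The study asked how rapamycin, an inhibitor of the mechanistic target of rapamycin (mTOR), acts in a mouse model of aortic dissection (AD), a tear within the aortic wall. Male C57BL/6J mice of 11 to 14 weeks, without genetic modification, were divided into 4 groups of 3, and the RNA of each aorta, taken on day 3 per the series record, was hybridised to 1 array. The DMSO group had vehicle injections only, and the rapamycin group had injections of 2 mg/kg/day in the same vehicle. The challenged groups also carried minipumps that delivered β-aminopropionitrile (BAPN), which blocks crosslinking of collagen and elastin, at 150 mg/kg/day and angiotensin II (AngII), a vasoconstrictor peptide, at 1 µg/kg/min, with vehicle injections in BA+DMSO and with rapamycin injections in BA+rapamycin. In the labels, titles of DMSO samples start with Pre, a word the study uses for the state before the challenge. The series record gives day 3 for its samples in general, so it is not settled whether the DMSO aortas were taken then or before treatment of the others, and every comparison with DMSO carries this doubt. Each sample is a piece of whole aorta, and in such bulk samples fewer cells of a type and less RNA per cell cannot be told apart.

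Ribosomal RNA is transcribed by RNA polymerase I in the nucleolus as a long precursor. Small nucleolar RNA particles modify this precursor, and trains of assembly factors fold and cut it and add the ribosomal proteins until both subunits can leave for the cytoplasm. The pathway is one of the main outputs of mTOR signalling. Growing and dividing cells raise it, and quiescent vascular smooth muscle cells run it at a low rate.

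Every value below is a log2 level, that is the log2 of a probe's processed signal minus the 75th percentile of the same array, so a level of 0 lies at that percentile and levels of different probes cannot be compared. A difference is a difference of group means on that scale, given with its standard error (SE) from a limma model of all 12 arrays, and a gene is called at a Benjamini-Hochberg adjusted p under 0.05 over all 27801 probes tested. The 4 groups share 1 estimate of the spread for each probe. The wider spread of BA+DMSO thus also enters the SE and calls of comparisons that leave that group out. A gene stands by its tested probe with the highest mean. On build mm9 of the array files, the probe used for Bop1 matches chr15:76283572-76283631 (- strand), that of Nhp2 chr11:51436872-51436931 (+ strand), that of Rrp1b chr17:32193829-32193888 (+ strand) and that of Nop10 chr2:112102712-112102771 (+ strand). The probe of Nop14 spans chr5:34986699-34987391 (- strand), 693 bases for a probe of 60, so its match is split. Their place in exons or untranslated parts was not analysed here.

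Some facts of the arrays bear on all results. The 75th percentile of the signal was 221.5 to 279.8 intensity units in DMSO, 257.4 to 337.3 in rapamycin, 78.07 to 246.4 with BA+DMSO and 74.62 to 109.3 with BA+rapamycin, so the challenged arrays were mostly dimmer. Within BA+DMSO, replicate 2 was the dimmest at 78.07 and replicate 3 the brightest at 246.4. Correlations between arrays across probes were 0.987 to 0.993 in the unchallenged groups but 0.912 to 0.961 in BA+DMSO. The 3 DMSO arrays and 1 rapamycin array lay on slide 1 and the other 8 arrays on slide 2, so slide and challenge can hardly be told apart. All 10 smooth muscle markers tested, such as Acta2 and Myh11, were well above background on all 12 arrays, which fits the labelled tissue.

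Across the 40 genes, the responses were small. After the challenge, 3 genes rose and 1 fell against DMSO, which is 10% of the 40 beside 21.4% of all genes called (10.4% higher and 11% lower). Ddx21, Bop1 and Nhp2 rose by 0.88, 0.83 and 0.75, and Pes1 fell by 0.80. By the probe used for each gene, all 40 differences stayed within 2-fold, against 83.7% of all genes (other probes of Ncl, Nolc1 and Npm1, given with the probe pairs, went beyond it), and the median size of a difference was 0.22 beside 0.44 over all genes. The median signed difference was 0.07 beside -0.02 over all genes, and it was -0.09 without BA+DMSO replicate 3 and 0.18 without replicate 2. In 10 genes every BA+DMSO array lay above every DMSO array, where 15.4% of all genes did so, and in 0 genes every BA+DMSO array lay below, where 20.1% of all genes did. At an unadjusted p under 0.05, 8 genes passed (20% beside 36.2% of all genes). With slide as a block, the challenge called 0 of the 40 genes and 0.0599% of all genes, and there the slides are linked only through the rapamycin group, which has 1 array on slide 1. Among the mice with vehicle injections only, the median range of these genes over the 3 DMSO arrays was 0.18 beside 0.28 over all genes.

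**Figure D1:**
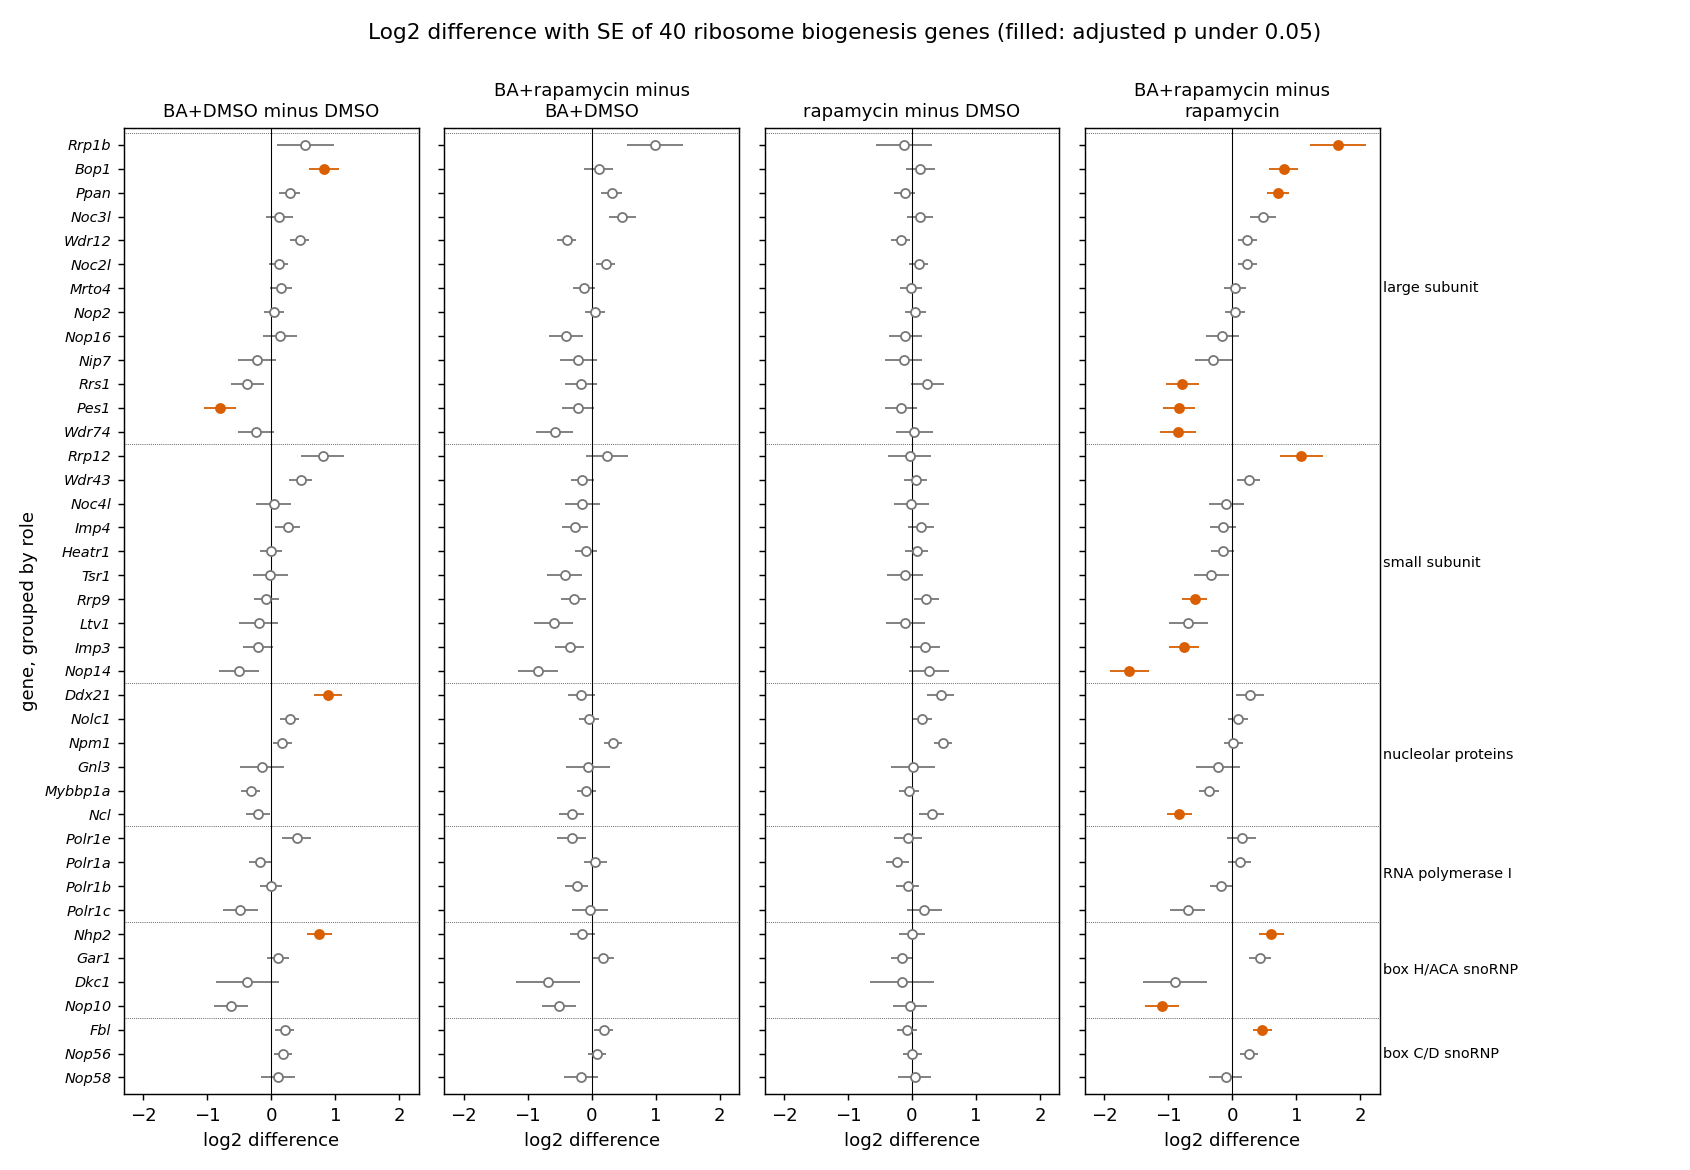
Log2 difference of each of the 40 genes in the 4 comparisons (horizontal axis, with the SE from limma as whiskers), grouped by role. Filled orange points passed an adjusted p of 0.05: 4 genes after the challenge, 0 for rapamycin in either setting, and 14 where challenged and unchallenged mice both had rapamycin.

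For rapamycin in challenged mice (BA+rapamycin against BA+DMSO), 0 of the 40 genes were called with all 12 arrays, where 0.305% of all genes were called, with 0.0649% higher and 0.24% lower. At an unadjusted p under 0.05 there were 5 genes (Nop14, Wdr12, Npm1, Noc3l and Rrp1b) beside 20.5% of all genes. There were 28 genes with lower and 12 with higher means, at a median of -0.15 beside -0.03 over all genes. Without BA+DMSO replicate 3 this median was 0.04, and without replicate 2 it was -0.35. The groups did not overlap in 1 gene that was higher, Npm1, and in 2 that were lower, Polr1e and Wdr12, where 6.8% and 8.08% of all genes did so. In mice without the challenge (rapamycin against DMSO), 0 of 40 genes were called beside 0.00499% of all genes, and 1 gene, Npm1, had an unadjusted p under 0.05 beside 4.43% of all genes. The median was 0.00 beside -0.01 over all genes, and the median size was 0.11 beside 0.16. Groups did not overlap in 7 genes that were higher and 3 that were lower with rapamycin alone, where 10.6% and 11.8% of all genes did so.

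The challenge under rapamycin (BA+rapamycin against rapamycin) gave the most calls, 6 genes higher and 8 lower, or 35% of the 40 genes beside 42.7% of all genes (19.8% higher and 22.9% lower). The rises were Rrp1b, Rrp12, Bop1, Ppan, Nhp2 and Fbl, from 1.65 down to 0.47, and the falls were Nop14, Nop10, Wdr74, Pes1, Ncl, Rrs1, Imp3 and Rrp9, from -1.61 to -0.58. The median size was 0.34 beside 0.63 over all genes, and 36 of 40 genes stayed within 2-fold beside 71.7% of all genes. Groups did not overlap in 12 genes higher and 14 lower, where 31.2% and 36.6% of all genes did so. On slide 2 alone, which holds 2 rapamycin arrays, 1 of the 40 genes was called beside 12% of all genes, and with slide as a block 6 were called beside 29.2%. The interaction, which asks whether the rapamycin difference was the same with and without the challenge, called 0 of the 40 genes and 0% of all genes, and 2 of the 40 (Nop14 and Ncl) had an unadjusted p under 0.05 beside 6.01% of all genes. A stricter rule named in the study's methods, an unadjusted p under 0.01 with a fold change over 4 or under 0.25, took 0 of the 40 genes in each of these 5 comparisons, beside 2.83% of all genes in the challenge, 0.17% and 0.02% with rapamycin in challenged and unchallenged mice, 5.43% in the challenge under rapamycin and 0.215% in the interaction.

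**Figure D2:**
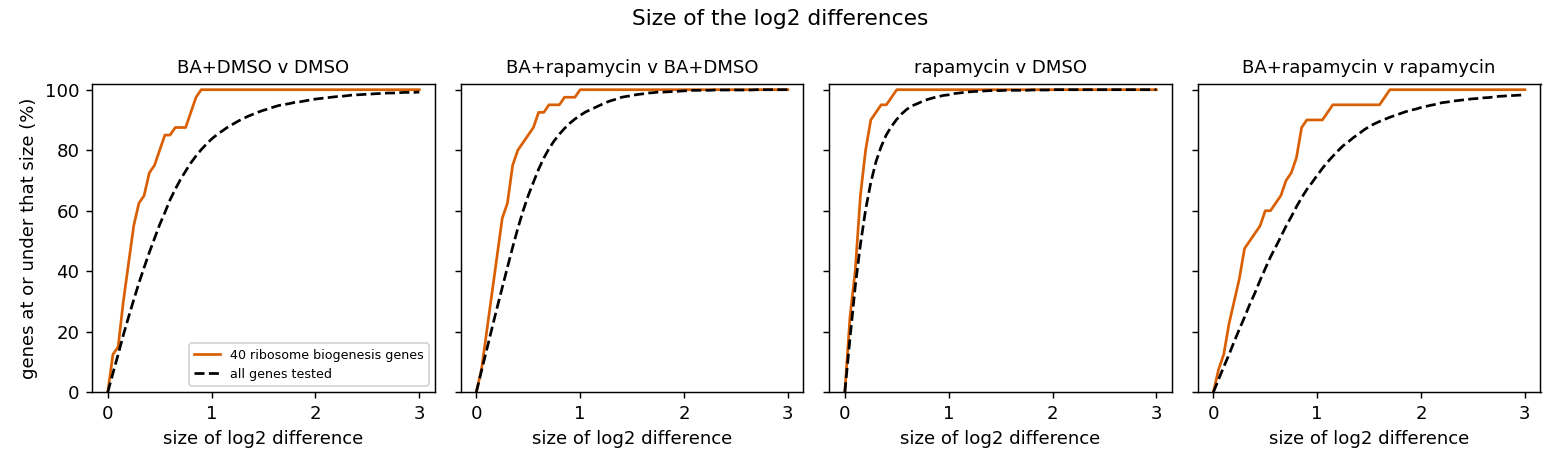
Share of genes (vertical axis, percent) whose log2 difference is at or under the size on the horizontal axis, for the 40 ribosome biogenesis genes (orange) and all 20026 genes tested (dashed). The orange line lies above the dashed one over most of each panel, with median sizes of 0.22 against 0.44 in the challenge and 0.34 against 0.63 in the challenge under rapamycin.

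The promoters were searched for a letter pattern that the choice by name did not use, and most of them lacked it. The E-box CACGTG, which reads the same on both strands and is a binding sequence of Myc, Max and related factors, was searched from 250 bases before to 50 after each annotated start. RefSeq promoters of build GRCm38.p6 were at hand for 35 of the 40 genes, and those of Fbl, Npm1, Rrp12, Bop1 and Rrs1 were not matched. CACGTG stood in 7 of the 35 genes (20%), beside 8.09% of 27025 genes, and in 17.9% of their 39 promoters beside 7.15% of 32851 promoters of the same length. This difference was not tested, and 28 of the 35 genes had no match. The 30 bases around each match are shown because they carry this count, with the E-box in capitals.
Pes1, chr11:3963965-3963994, + strand: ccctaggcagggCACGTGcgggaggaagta
Tsr1, chr11:74898092-74898121, + strand: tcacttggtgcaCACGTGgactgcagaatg
Ltv1, chr10:13193092-13193121, - strand: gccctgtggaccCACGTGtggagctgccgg
Wdr43, chr17:71616220-71616249, + strand: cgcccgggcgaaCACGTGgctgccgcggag
Mybbp1a, chr11:72441347-72441376, + strand: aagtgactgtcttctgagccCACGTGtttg
Nop2, chr6:125131811-125131840, + strand: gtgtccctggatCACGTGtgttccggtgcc
Imp4, chr1:34439696-34439725, + strand: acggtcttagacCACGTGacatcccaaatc
In 5 of the 7, from Pes1 to Mybbp1a in this list, the first base of the match lay 2 to 40 bases after the annotated start, and in Nop2 and Imp4 it lay before the start, at -60 and -121 bases from it. A match is a description of letters and not a bound site. Of the 7 genes with a match, 1 (Pes1) was called in the challenge, and of the 28 without, 2 were, where 21.4% of all genes were called. In the challenge under rapamycin 1 of the 7 and 9 of the 28 were called, where 42.7% of all genes were. The median difference of the challenge was -0.01 in the 7 and 0.07 in the 28. Under rapamycin in challenged mice the medians were -0.21 and -0.15.

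The box C/D particles consist of the scaffold proteins Nop56 and Nop58 and the methyltransferase fibrillarin, encoded by Fbl. All 3 were higher in the challenge, by 0.10 to 0.21, and 0 were called there beside 21.4% of all genes. In the challenge under rapamycin 1 of 3 rose (33.3% beside 42.7% of all genes). Nop56 had levels of 3.55, 3.75 and 3.80 in DMSO, 3.72, 3.69 and 3.72 in rapamycin, 3.84, 4.004 and 3.82 in BA+DMSO and 3.91, 4.08 and 3.93 in BA+rapamycin. Challenged arrays were higher than their controls without overlap, by small amounts. The difference was 0.19 (SE 0.14, adjusted p = 0.389) in the challenge and 0.26 (SE 0.14, adjusted p = 0.162) in the challenge under rapamycin. Fbl rose by 0.47 (SE 0.15, adjusted p = 0.0321) in the challenge under rapamycin, with BA+rapamycin at 2.91 to 3.32 above rapamycin at 2.55 to 2.74, and was 0.21 higher in the challenge, which was not called. The Fbl call was lost without DMSO replicate 2 or 3, any rapamycin replicate, or BA+rapamycin replicate 2 or 3, with differences of 0.36 to 0.52. Nop58 lay at 1.65 to 2.00 on the 9 arrays of the other groups but at 2.32, 1.26 and 2.33 in BA+DMSO, so the challenged replicates with vehicle straddled all others.

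Box H/ACA particles hold the pseudouridine synthase dyskerin, encoded by Dkc1, with Nhp2, Nop10 and Gar1. The group split, with 1 of 4 rising in the challenge (25% beside 21.4% of all genes) and 1 rising and 1 falling in the challenge under rapamycin (50% beside 42.7%). Nhp2 lay at 3.86, 3.72 and 3.45 in DMSO, 3.46, 3.74 and 3.81 in rapamycin, 4.25, 4.23 and 4.80 in BA+DMSO and 4.33, 4.196 and 4.31 in BA+rapamycin. All 6 challenged arrays were above all 6 others. It rose by 0.75 (1.68-fold, SE 0.20, adjusted p = 0.0229) in the challenge and by 0.61 (1.52-fold, SE 0.20, adjusted p = 0.0308) in the challenge under rapamycin, and it differed by -0.15 (SE 0.20) between the challenged groups. The first call was lost without DMSO replicate 2 or 3, where the difference was 0.77 or 0.64, and the second without any 1 of the 6 arrays compared, where it was 0.50 to 0.68. Nop10, a short protein of the same particle, went the other way, with 4.04, 4.14 and 4.04 in DMSO, 3.89, 4.04 and 4.18 in rapamycin, 3.35, 2.85 and 4.13 in BA+DMSO and 3.02, 2.83 and 2.94 in BA+rapamycin. The BA+rapamycin arrays were all below the unchallenged arrays, while BA+DMSO replicate 3 lay at their level. Nop10 fell by 1.11 (2.15-fold, SE 0.27, adjusted p = 0.00901) in the challenge under rapamycin and was -0.63 in the challenge (SE 0.27, adjusted p = 0.115).

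Dkc1 was near background, with -1.84, -2.02 and -2.43 in DMSO, -2.39, -2.46 and -1.92 in rapamycin, -1.94, -3.75 and -1.72 in BA+DMSO and -2.71, -3.94 and -2.80 in BA+rapamycin. On BA+rapamycin arrays it was not well above background, and on 2 of the 3 BA+DMSO arrays it was. With the lowest signal well above background on each BA+rapamycin array as the limit, Dkc1 was at least 1.27-fold higher in rapamycin. The fitted difference, which uses the BA+rapamycin signals not well above background, was not called (adjusted p = 0.161). That p does not test the bound. No fold is given between the challenged groups, since BA+DMSO replicate 2 was itself not well above background. Gar1 was 0.43 higher in BA+rapamycin than in rapamycin (SE 0.17, adjusted p = 0.0606), which was not called.

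Among the subunits of RNA polymerase I, 0 of 4 were called in any comparison. Beside this stood 21.4% of all genes in the challenge and 42.7% in the challenge under rapamycin. With rapamycin it was 0.305% in challenged and 0.00499% in unchallenged mice, and in the interaction 0%. The medians of the 4 subunits lay between -0.13 and -0.03 in the 4 comparisons of groups and at -0.19 in the interaction. Polr1c, a subunit shared with RNA polymerase III, lay at 2.83, 2.86 and 2.63 in DMSO, 2.92, 2.87 and 3.10 in rapamycin, 2.43, 1.55 and 2.88 in BA+DMSO and 2.31, 2.31 and 2.17 in BA+rapamycin. BA+rapamycin was below rapamycin without overlap, by -0.70 (SE 0.28, adjusted p = 0.0608). Polr1a, the largest subunit, lay at 1.81, 1.83 and 1.71 in DMSO and 1.63, 1.57 and 1.46 in rapamycin, then at 1.37, 1.48 and 1.99 in BA+DMSO and 1.74, 1.69 and 1.58 in BA+rapamycin. The rapamycin arrays were below the DMSO arrays without overlap, by -0.23 (SE 0.18, adjusted p = 1), the lowest difference of the 40 genes in that comparison, while the second probe of Polr1a was at 0.15 (SE 0.32). Polr1b and Polr1e, the second largest subunit and a subunit of the initiating enzyme, differed by -0.01 and 0.40 in the challenge and by -0.24 and -0.31 with rapamycin in challenged mice.

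The nucleolar proteins held the highest differences of rapamycin alone, where 5 of 6 were higher (median 0.23). Of the 6, 0 were called there beside 0.00499% of all genes. In challenged mice rapamycin gave lower means in 5 of 6 (median -0.07). Npm1, which encodes the histone and ribosome chaperone nucleophosmin, lay at 5.11, 5.19 and 5.22 in DMSO, 5.69, 5.61 and 5.68 in rapamycin, 5.48, 5.35 and 5.21 in BA+DMSO and 5.62, 5.75 and 5.66 in BA+rapamycin. On this probe, both groups given rapamycin were above both groups given vehicle without overlap. The difference was 0.49 (1.40-fold, SE 0.14, adjusted p = 0.751) without the challenge and 0.33 (SE 0.14, adjusted p = 0.231) with it, so neither passed the adjusted test. Npm1 has many processed copies in the genome, and its 5 probes differed, as described with the probe pairs. Ddx21, an RNA helicase of rRNA transcription and processing, lay at 0.41, 0.13 and 0.14 in DMSO, 0.75, 0.50 and 0.76 in rapamycin, 1.14, 0.67 and 1.52 in BA+DMSO and 0.88, 1.09 and 0.87 in BA+rapamycin. The DMSO arrays were the lowest of all. It rose by 0.88 (1.85-fold, SE 0.21, adjusted p = 0.0166) in the challenge and was 0.45 higher with rapamycin alone (SE 0.21, adjusted p = 1) and 0.28 higher in the challenge under rapamycin (SE 0.21, adjusted p = 0.311). The call was lost without DMSO replicate 2 or 3 or BA+DMSO replicate 1, at 0.84 to 0.87.

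Ncl encodes nucleolin, a major RNA-binding protein of the nucleolus. Its levels were 4.65, 4.61 and 4.56 in DMSO, 4.84, 4.84 and 5.06 in rapamycin, 4.42, 4.01 and 4.77 in BA+DMSO and 4.07, 4.21 and 3.98 in BA+rapamycin. Rapamycin alone lay above DMSO, and BA+rapamycin lay below every unchallenged array. Ncl fell by 0.83 (1.77-fold, SE 0.19, adjusted p = 0.00809) in the challenge under rapamycin and differed by 0.30 with rapamycin alone (SE 0.19, adjusted p = 1) and by -0.31 with rapamycin in challenged mice (SE 0.19, adjusted p = 0.344). The interaction was -0.62 (SE 0.28, adjusted p = 0.737). Of the other nucleolar proteins, Mybbp1a, a regulator of rRNA transcription, was at -0.32 in the challenge (adjusted p = 0.158), and Nolc1, a chaperone of small nucleolar particles, at 0.28 (adjusted p = 0.209). Gnl3, which encodes the GTPase nucleostemin, lay at 0.62, -0.67 and 0.73 in BA+DMSO, wider than the 0.23 to 0.61 of the unchallenged arrays.

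Small subunit factors cut and fold the 18S part of the precursor. In the challenge 0 of 10 were called (0% beside 21.4% of all genes, median -0.01). In the challenge under rapamycin 1 rose and 3 fell (40% beside 42.7% of all genes, median -0.24). With rapamycin in challenged mice 9 of 10 had lower means (median -0.27) and 0 were called beside 0.305% of all genes. Without BA+DMSO replicate 3, the median of all 40 genes in this comparison moved from -0.15 to 0.04. The median of the 10 small subunit factors alone was not computed there. Imp3, a protein of the U3 particle, lay at 5.18, 5.25 and 5.16 in DMSO, 5.23, 5.46 and 5.52 in rapamycin, 4.85, 4.57 and 5.57 in BA+DMSO and 4.82, 4.55 and 4.58 in BA+rapamycin. BA+rapamycin was below all unchallenged arrays, and BA+DMSO replicate 3 was above them. Imp3 fell by 0.76 (1.69-fold, SE 0.23, adjusted p = 0.025) in the challenge under rapamycin, a call lost without rapamycin replicate 2 or 3 or BA+rapamycin replicate 2 or 3, at -0.73 to -0.70. Rrp9, another U3 protein, fell by 0.58 (SE 0.20, adjusted p = 0.0348), and its call was lost without any 1 of 8 arrays (any of DMSO and rapamycin, or BA+rapamycin replicate 2 or 3), at -0.66 to -0.53.

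Nop14, which acts in early assembly of the small subunit, gave the largest fall of the 40 genes. It lay at -0.39, -0.56 and -0.47 in DMSO, -0.36, -0.33 and 0.06 in rapamycin, -0.87, -1.78 and -0.28 in BA+DMSO and -1.86, -1.96 and -1.63 in BA+rapamycin. The BA+rapamycin arrays were well below all unchallenged arrays, while BA+DMSO spread from DMSO levels down to those of BA+rapamycin. Nop14 fell by 1.61 (3.05-fold, SE 0.31, adjusted p = 0.00347) in the challenge under rapamycin, and was -0.51 in the challenge (SE 0.31, adjusted p = 0.27) and -0.84 with rapamycin in challenged mice (SE 0.31, adjusted p = 0.197).

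Rrp12, an export factor of the small subunit precursor, was at -1.77, -2.17 and -1.85 in DMSO, -1.89, -1.98 and -2.04 in rapamycin, -1.38, -0.57 and -1.43 in BA+DMSO and -0.70, -0.30 and -1.67 in BA+rapamycin. All challenged arrays lay above all unchallenged ones. It rose by 1.08 (2.11-fold, SE 0.33, adjusted p = 0.0254) in the challenge under rapamycin and was 0.80 higher in the challenge (SE 0.33, adjusted p = 0.112). The call was lost without any rapamycin replicate or without BA+rapamycin replicate 1 or 2, at 0.78 to 1.12. Ltv1, needed for late maturation of the small subunit, lay at 2.54, 2.48 and 2.11 in DMSO, 2.07, 2.11 and 2.65 in rapamycin, 2.40, 1.42 and 2.71 in BA+DMSO and 1.58, 1.78 and 1.40 in BA+rapamycin. BA+rapamycin was below both unchallenged groups. The difference was -0.59 with rapamycin in challenged mice (SE 0.31, adjusted p = 0.287) and -0.69 in the challenge under rapamycin (SE 0.31, adjusted p = 0.0915). Heatr1, Wdr43, Noc4l, Imp4 and Tsr1, which act from the first assembly steps to late maturation, were called in no comparison with all 12 arrays, and their differences in the challenge ran from -0.01 (Tsr1) to 0.46 (Wdr43, adjusted p = 0.0949).

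Of 13 large subunit factors 1 rose and 1 fell in the challenge (15.4% beside 21.4% of all genes, median 0.13), and 3 rose and 3 fell in the challenge under rapamycin (46.2% beside 42.7%, median 0.04). They include Bop1, Pes1 and Wdr12, which form the PeBoW complex needed to process the precursor of the large subunit. Bop1 lay at 3.29, 3.01 and 3.15 in DMSO, 3.10, 3.42 and 3.32 in rapamycin, 3.57, 3.87 and 4.48 in BA+DMSO and 4.26, 4.13 and 3.85 in BA+rapamycin. All challenged arrays were above all unchallenged arrays. Bop1 rose by 0.83 (1.77-fold, SE 0.23, adjusted p = 0.0296) in the challenge and by 0.80 (1.74-fold, SE 0.23, adjusted p = 0.0195) in the challenge under rapamycin. The first call was lost without any 1 of the DMSO replicates, at 0.76 to 0.90, and the second without rapamycin replicate 1 or 3 or BA+rapamycin replicate 1 or 2, at 0.71 to 0.82.

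Pes1 lay at 3.64, 3.44 and 3.30 in DMSO, 3.23, 3.19 and 3.44 in rapamycin, 2.23, 2.43 and 3.31 in BA+DMSO and 2.49, 2.43 and 2.43 in BA+rapamycin. BA+DMSO replicate 3 lay within the DMSO range and the other challenged arrays were below it. Pes1 fell by 0.80 (1.74-fold, SE 0.25, adjusted p = 0.0446) in the challenge and by 0.84 (1.79-fold, SE 0.25, adjusted p = 0.022) in the challenge under rapamycin. The first call was lost without any 1 array other than BA+DMSO replicate 3, at -0.88 to -0.58, and the second without rapamycin replicate 1 or 3 or BA+rapamycin replicate 2 or 3, at -0.87 to -0.76. Wdr12 lay at 1.40, 1.25 and 1.35 in DMSO, 1.04, 1.23 and 1.20 in rapamycin, 1.64, 1.77 and 1.92 in BA+DMSO and 1.27, 1.47 and 1.44 in BA+rapamycin. BA+DMSO stood above every other group. The difference was 0.44 in the challenge (SE 0.15, adjusted p = 0.0567) and -0.39 with rapamycin in challenged mice (SE 0.15, adjusted p = 0.208), and neither was called.

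Rrp1b, a nucleolar protein of large subunit processing, gave the largest rise of the 40 genes. It lay at -0.88, -0.60 and -0.29 in DMSO, -0.66, -0.65 and -0.84 in rapamycin, -0.47, 1.26 and -0.95 in BA+DMSO and 0.91, 0.96 and 0.94 in BA+rapamycin. The 3 BA+rapamycin arrays were nearly equal and far above the unchallenged arrays, and BA+DMSO replicate 2 alone joined them. Rrp1b rose by 1.65 (3.14-fold, SE 0.44, adjusted p = 0.0137) in the challenge under rapamycin, and it was 0.53 higher in the challenge (SE 0.44, adjusted p = 0.413) and 0.99 higher with rapamycin in challenged mice (SE 0.44, adjusted p = 0.241). Noc3l, a factor of early large subunit precursors, lay at 1.46, 1.63 and 1.73 in DMSO, 1.87, 1.70 and 1.64 in rapamycin, 1.64, 2.17 and 1.39 in BA+DMSO and 2.29, 2.32 and 2.03 in BA+rapamycin. Here too BA+DMSO replicate 2 was at the level of BA+rapamycin and the other BA+DMSO arrays were not. The difference with rapamycin in challenged mice was 0.48 (SE 0.21, adjusted p = 0.234).

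Wdr74, which works with an ATPase that frees factors from the large subunit precursor, lay at 1.04, 0.86 and 0.87 in DMSO, 0.79, 0.90 and 1.19 in rapamycin, 0.53, 0.11 and 1.43 in BA+DMSO and 0.30, 0.03 and 0.01 in BA+rapamycin. BA+rapamycin was the lowest group, and BA+DMSO replicate 3 was the highest array. Wdr74 fell by 0.85 (1.80-fold, SE 0.29, adjusted p = 0.0356) in the challenge under rapamycin, a call lost without DMSO replicate 2 or 3, any rapamycin replicate or BA+rapamycin replicate 2 or 3, at -0.93 to -0.73. Rrs1, which helps to add the 5S particle, fell by 0.78 (SE 0.25, adjusted p = 0.0304), and its call was lost without rapamycin replicate 1 or 3 or BA+rapamycin replicate 1 or 3, at -0.80 to -0.66. Ppan rose by 0.71 (SE 0.17, adjusted p = 0.00781). The calls of Ppan, Rrp1b, Nop14, Nop10 and Ncl in the challenge under rapamycin held without each single array. Over all settings tried, the call was kept in 24 of 25 for Nop14 and 24 of 26 for Ncl. It was kept in 23 of 25 for Nop10, 23 of 25 for Rrp1b and 22 of 25 for Ppan. The difference of Rrp1b reversed in 1 setting (-0.15), and that of Nop10 was as small as -0.02. Nop2, a methyltransferase of the large rRNA, and Nop16, Noc2l, Mrto4 and Nip7 were called in no comparison with all 12 arrays and differed by -0.22 (Nip7) to 0.15 (Mrto4) in the challenge.

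**Figure D3:**
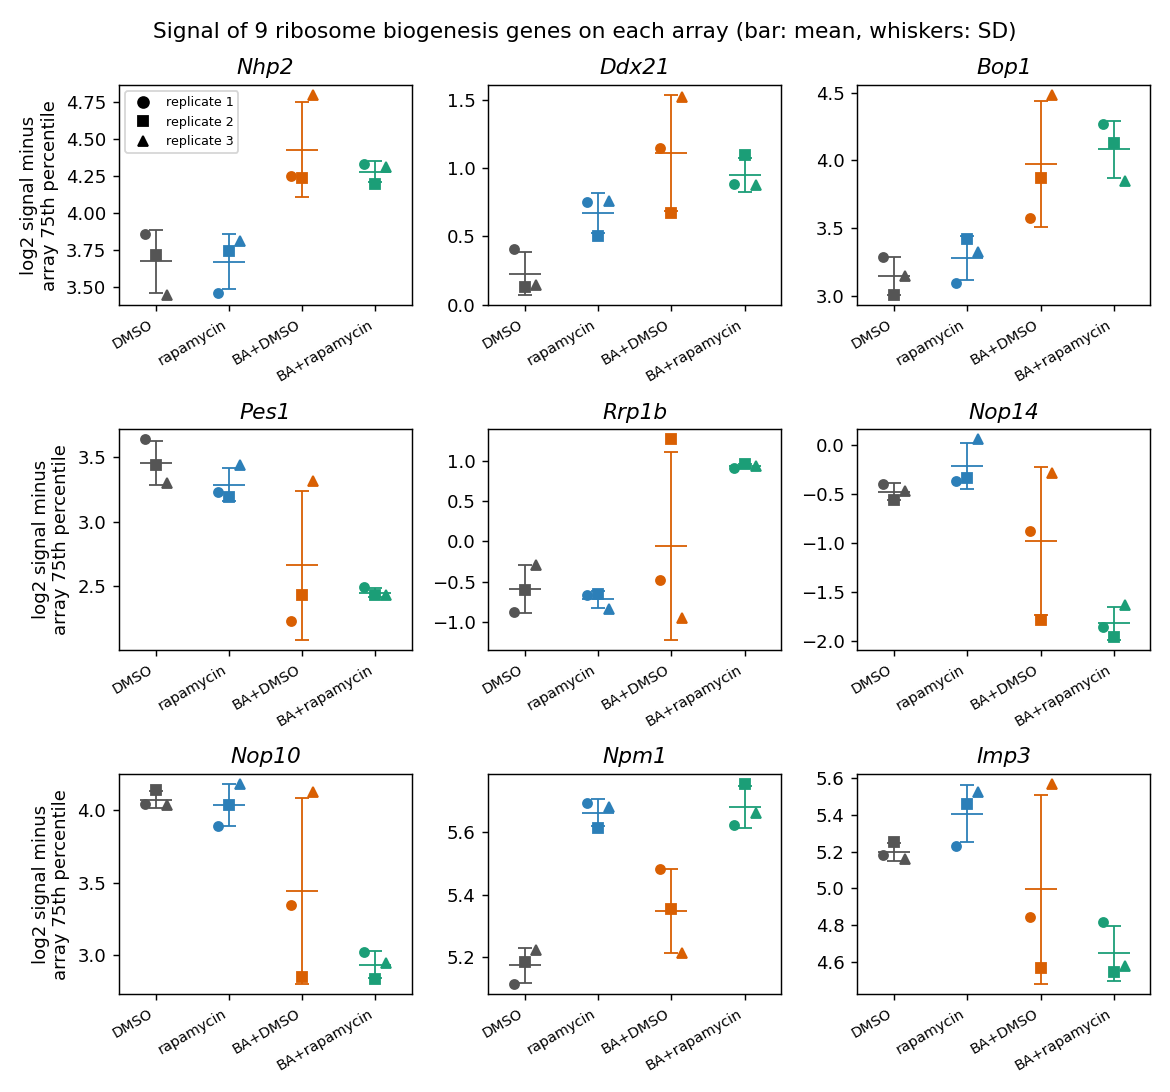
Log2 level minus the array's 75th percentile (vertical axis) of 9 genes on each array, by group, with the group mean and SD (n = 3). Within BA+DMSO, replicate 3 lies highest for Nop10 (4.13) and Imp3 (5.57) and replicate 2 lies highest for Rrp1b (1.26).

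The BA+DMSO arrays disagreed among themselves in one order. Replicate 3, the brightest array, was the highest of the 3 in 32 of the 40 genes (80% beside 44% of all genes), and replicate 2, the dimmest, was the lowest in 27 (67.5% beside 43.5%). Both held in 25 genes (62.5% beside 32.4%). The median range over the 3 arrays was 0.80 in BA+DMSO beside 0.18 in DMSO, 0.24 in rapamycin and 0.24 in BA+rapamycin, and over all genes it was 0.94 in BA+DMSO. The median over the 40 genes of the difference from the DMSO mean was -0.24 on the lowest and 0.31 on the highest BA+DMSO array, which spans every other array. The part of array brightness in this order was not tested.

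Leaving out BA+DMSO replicate 2 changed the counts. The challenge then called 8 of the 40 genes, 8 higher and 0 lower, beside 28.4% of all genes (14.8% higher and 13.7% lower). They were Ddx21 (1.104), Bop1 (0.88), Nhp2 (0.85), Wdr43 (0.59), Imp4 (0.47), Nop58 (0.46), Wdr12 (0.45) and Noc4l (0.42). Rapamycin in challenged mice then called 16 genes, 3 higher and 13 lower, beside 41% of all genes (17% higher and 24% lower). Rrp1b (1.65), Noc3l (0.70) and Ppan (0.42) were the higher ones, and the lower ones ran from Nop14 (-1.24) to Wdr12 (-0.39), with Dkc1 known only as a bound. Dkc1 was not well above background on any BA+rapamycin array and was at least 1.7-fold higher in the 2 remaining BA+DMSO arrays. Its adjusted p of 0.0181 belongs to the fitted difference, which uses those BA+rapamycin signals, and does not test the bound. The interaction then called 5 genes, Rrp1b (1.78) higher and Nop14 (-1.50), Ddx21 (-0.83), Ncl (-0.81) and Tsr1 (-0.69) lower, beside 11.2% of all genes (3.79% higher and 7.41% lower). Without BA+DMSO replicate 3 in its place, the challenge called 10 genes, 3 higher and 7 lower, beside 39.4% of all genes (shares by direction not computed). These settings leave 2 BA+DMSO arrays.

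Probes of one gene often gave different differences. Of the 40 genes, 13 had 2 or more tested probes, which gave 17 pairs of the brightest probe with another. In 9 pairs, of 7 genes, the difference of the challenge had opposite signs (52.9%), where 28.5% of 7634 such pairs over all genes did. The median gap between the probes of a pair was 0.60 beside 0.33 over all genes, and the largest was 1.37. Where the log2 ratio of both probes is taken on each array, DMSO and BA+DMSO did not overlap in 8 of the 17 pairs (47.1%) beside 21.4% of the 7634 pairs over all genes, and rapamycin and BA+rapamycin did not in 12 (70.6% beside 56% of all pairs). The exact permutation test gives 0.1 for each of these, the smallest p that 3 arrays against 3 allow, so these ratios cannot pass 0.05. The 12 include the pair of Pes1, whose dimmer probe was not well above background on any BA+rapamycin array, so its ratio there is not exact.

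The probes of Pes1, Nolc1 and Ddx21 show the largest such gaps, and the first 30 of their 60 bases are given, with coordinates on build mm9 of the array files. No part is marked.
Pes1, nearer the start, chr11:3873303-3873332, + strand: attcagttgtgccgtaggctcactgtggag
Pes1, nearer the end, chr11:3879948-3879977, + strand: aagtatgtatggctcacacttccacattgt
Nolc1, nearer the start, chr19:46158875-46158904, + strand: gttgtcaattgccttcctgttctgtgggtc
Nolc1, nearer the end, chr19:46159335-46159364, + strand: ttcgaagtaagcttttctgacagacatttt
Ddx21, nearer the start, chr10:62044892-62044921, - strand: ttgcatcgttttccaacatacttttagatt
Ddx21, nearer the end, chr10:62043347-62043376, - strand: aaatgatctgtcataaaccaaacagtgaag
The fall of Pes1 by 0.80 comes from the probe nearer the end, while the dimmer probe 6645 bases nearer the start lay at -2.36, -2.87 and -3.24 in DMSO and -2.62, -2.34 and -1.93 in BA+DMSO. Its difference was 0.53 (SE 0.25, adjusted p = 0.156), and it was not well above background on any BA+rapamycin array. The rise of Ddx21 by 0.88 comes from the probe nearer the start, and the other lay at 0.77, 0.86 and 0.80 in DMSO and 0.56, 0.39 and 0.70 in BA+DMSO, lower without overlap at -0.26 (SE 0.16, adjusted p = 0.269). Nolc1 gave 0.28 by its probe nearer the start and -1.08 (SE 0.35, adjusted p = 0.0516) by the other, 460 bases further on.

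Probes of further genes also differed. The second probe of Ncl, 6437 bases nearer the end, fell by 1.02 in the challenge (SE 0.19, adjusted p = 0.00505), from -0.10, -0.06 and -0.15 in DMSO to -1.56, -0.82 and -0.999 in BA+DMSO, while the brighter probe was at -0.21. Wdr43 gave 0.46 and, nearer the end, -0.63 (adjusted p = 0.121), and Wdr12 gave 0.44 and -0.26 (adjusted p = 0.378). Of the 5 probes of Npm1, the brightest was at 0.17 in the challenge, 3 others at -0.51, -0.42 and -0.02, and 1 rose by 1.16 (SE 0.36, adjusted p = 0.0431), with 0.93, 0.65 and 0.76 in DMSO and 2.76, 0.94 and 2.11 in BA+DMSO. With rapamycin alone the same 5 probes of Npm1 were higher by 0.11 to 0.63. With rapamycin in challenged mice the brightest was at 0.33, but the other 4 were at 0.03, 0.03, -0.07 and -0.36, so the higher level there rests on 1 probe. Another probe of Nop56, 2128 bases nearer the start, rose by 0.97 in the challenge under rapamycin (SE 0.30, adjusted p = 0.024). In the same comparison 6 other second probes fell. They were those of Nolc1 by 1.42 (SE 0.35, adjusted p = 0.0102), Ncl by 1.30 (SE 0.19, adjusted p = 0.000996) and Wdr43 by 0.83 (SE 0.27, adjusted p = 0.0315), and 3 probes of Npm1 by 1.02, 0.97 and 0.63 (adjusted p = 0.0364, 0.0436 and 0.0392). The used probes of Npm1, Nolc1 and Wdr43 were at 0.02, 0.09 and 0.26 there and were not called. The probes of Polr1e, Polr1a, Nip7 and Mrto4 kept one sign within each gene in the challenge.

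By their place on the genome, the probe nearer the start of the gene had the higher difference in 12 of the 17 pairs (70.6% beside 59.1% of all pairs), and in 9 of the 9 pairs with opposite signs, beside 67.2% of the 2179 such pairs over all genes. Over all genes, the median level of the probe nearer the start relative to the other, set to the DMSO mean, was -0.03 to 0.02 on the DMSO arrays, 0.03 to 0.05 in rapamycin, 0.06 to 0.11 with BA+DMSO and 0.09 to 0.14 with BA+rapamycin. For the pairs of the 40 genes it was -0.05 to 0.05, 0.08 to 0.19, 0.06 to 0.66 and 0.52 to 0.71 in the same order, with BA+DMSO replicate 3 at 0.06. The sorting of pairs by position was chosen after seeing the data. The part of this ratio in the differences of the 40 genes was not tested. The overlapping probes of Tsr1, which share 56 bases with 2 mismatches, gave -0.01 and 0.06 in the challenge. The overlapping probes of Npm1, which share 43 bases with 1 mismatch, gave 0.17 and -0.02 there, and in the challenge under rapamycin they were 0.64 apart, with no overlap of the ratio between the groups.

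**Figure D4:**
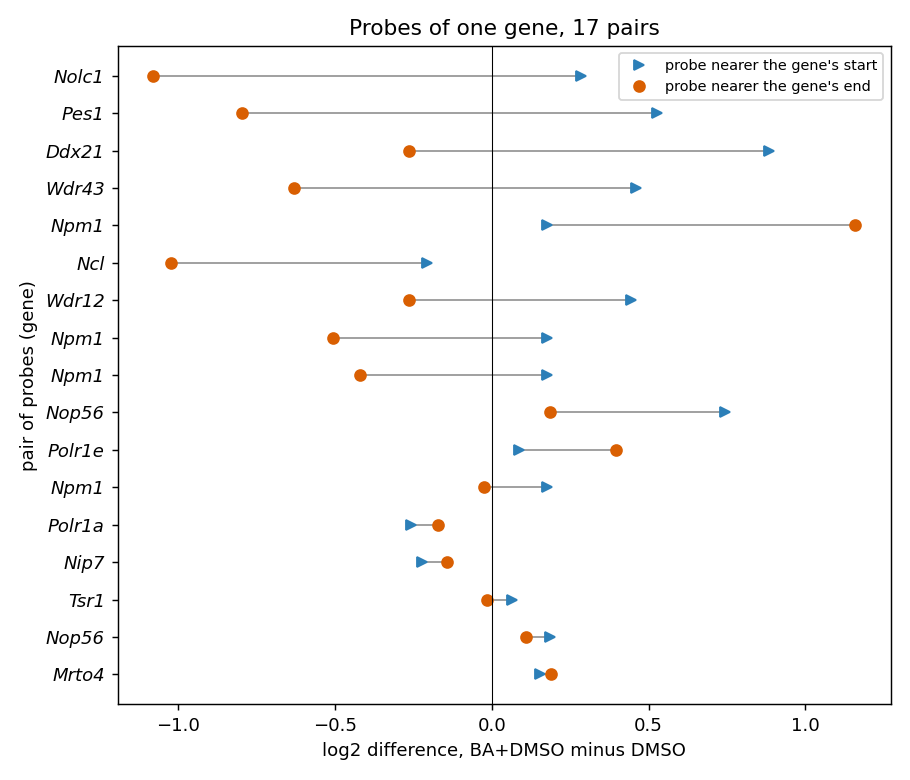
Log2 difference of BA+DMSO minus DMSO (horizontal axis) for the brightest probe of a gene and another probe of it, 17 pairs in 13 genes, with the probe nearer the start as a triangle and the one nearer the end as a circle. The widest line is Nolc1, from -1.08 to 0.28, and in the 9 lines that cross 0 the triangle is on the right.

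Further genes of the pathway were followed in another list, which held 99 other ribosome biogenesis factors, of which 95 were tested. In the challenge 2 of these rose and 9 fell (11.6% beside 21.4% of all genes), with a median of -0.14 and 28 higher and 67 lower means. Eif6, which keeps the subunits apart, rose by 0.83 (SE 0.17, adjusted p = 0.00787), and Bysl, a factor of the small subunit, rose by 0.55 (SE 0.18, adjusted p = 0.0499). The largest fitted falls were in Tsr2, an escort of a small subunit protein, at -1.92 (SE 0.27, adjusted p = 0.00134), Taf1a, a subunit of the initiation factor SL1 of RNA polymerase I, at -1.15 (SE 0.30, adjusted p = 0.0234), and Krr1, an early small subunit factor, at -0.78 (SE 0.22, adjusted p = 0.0296). Taf1a was well above background on only 1 of 3 BA+DMSO arrays, so the size and rank of its fall are not exact. Rapamycin called 0 of 95 with the challenge, beside 0.305% of all genes, and 0 of 95 without it, beside 0.00499%. In the challenge under rapamycin 9 rose and 23 fell (33.7% beside 42.7% of all genes), with a median of -0.26.

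The ribosomal proteins themselves, the cargo of this pathway, were followed through 50 genes. Their median was 0.16 in the challenge (3 higher, 0 lower called, or 6% beside 21.4% of all genes). It was 0.20 with rapamycin alone and 0.48 with rapamycin in challenged mice. Neither rapamycin comparison called any of them at the adjusted threshold, beside 0.00499% of all genes without the challenge and 0.305% with it. On BA+DMSO replicates 1, 2 and 3 the median difference from the DMSO mean was 0.31, -0.12 and 0.25, so the 0.16 depends on the arrays included. Every BA+rapamycin array was above every BA+DMSO array in 41 of 50, where 6.8% of all genes were higher in this way, and rapamycin was above DMSO in 39 of 50, where 10.6% were. In the challenge under rapamycin 25 of 50 rose and 0 fell (50% higher beside 19.8% of all genes, and 0% lower beside 22.9%), with a median of 0.40. The 40 biogenesis genes had medians of 0.00 and -0.15 in the same rapamycin comparisons, and the difference between the lists was not tested.

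**Figure D5:**
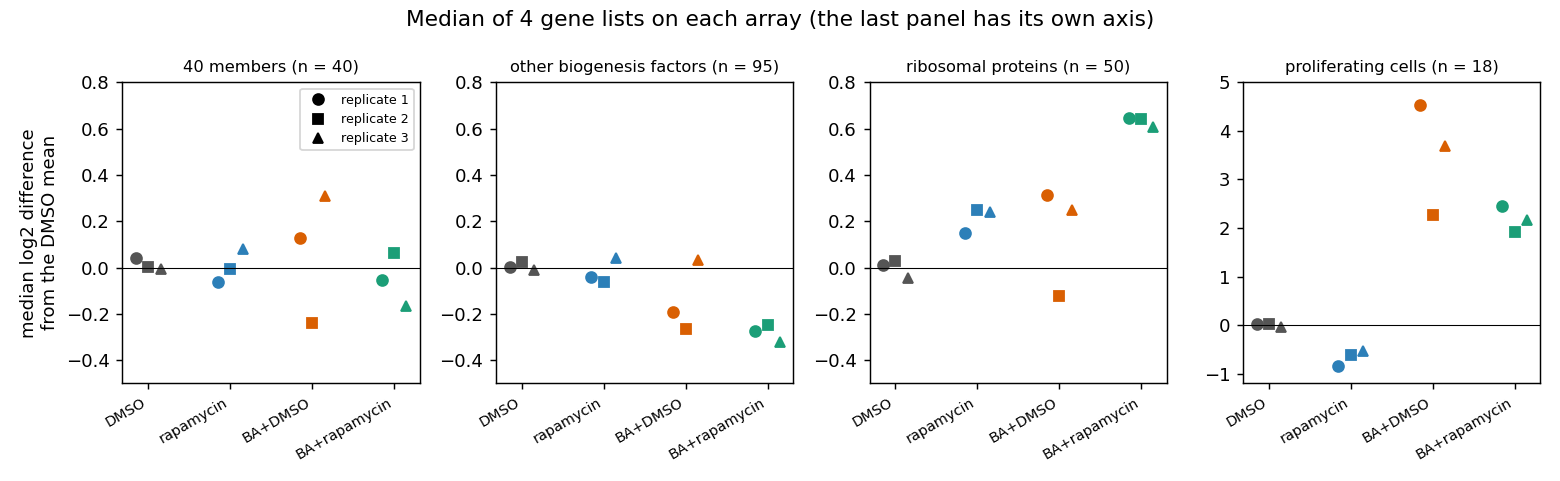
Median log2 difference from the DMSO mean (vertical axis) of 4 gene lists on each array, by group, with the symbol marking the replicate and the last panel on a wider axis. The 40 members range from -0.24 to 0.31 in BA+DMSO, while ribosomal proteins sit between 0.61 and 0.65 in BA+rapamycin and proliferation markers between 2.27 and 4.54 in BA+DMSO.

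Markers of other cell types moved in the same arrays. Of 20 markers of proliferating cells 18 were tested, and in the challenge 15 rose and 0 fell. Some of these rises were in genes that passed the filter only through challenged groups. They were Cdk1 and Kif11 through BA+DMSO, Top2a through BA+rapamycin and Ccnb1 through both. Rapamycin called 0 of the 18 in challenged mice (median -1.24), beside 0.305% of all genes. Without the challenge it called 0 (median -0.68), beside 0.00499% of all genes. The median difference from the DMSO mean was 4.54, 2.27 and 3.69 on BA+DMSO replicates 1, 2 and 3. It was 1.91 to 2.46 with BA+rapamycin, so BA+DMSO replicate 2 lay within that range and the -1.24 came from the other BA+DMSO arrays. Levels of these 18 markers, summed on the linear scale in units of the array's 75th percentile, were 36.8 to 52.9 in DMSO, 49.5 to 65.1 in rapamycin, 59.1 to 185 with BA+DMSO and 58.4 to 73.4 with BA+rapamycin, and 3 of the 18 were not well above background on any DMSO array. Bright probes weigh most in such sums, here Mcm6 (mean level 4.91 in DMSO), which was not called in the challenge. The sums need not follow the medians, and with rapamycin alone 16 of the 18 markers had lower means. Of 13 leukocyte markers 9 rose in the challenge, with a median of 1.79 and sums of 110 to 141 in DMSO, 119 to 144 in rapamycin, 187 to 493 with BA+DMSO and 374 to 502 with BA+rapamycin. Of 10 smooth muscle markers 2 fell, with a median of -0.65 and sums of 3060 to 3260, 2760 to 3210, 2500 to 4950 and 3550 to 4590. Fibroblast markers rose in 3 of 8, endothelial markers in 4 of 8 and erythroid markers in 4 of 4 in the challenge, where 10.4% of all genes were called higher. Erythroid markers were also higher with rapamycin, by a median of 1.47 without the challenge and 1.06 with it. In either comparison 0 of 4 were called, beside 0.00499% of all genes without the challenge and 0.305% with it. Their summed level was 18.1 to 84.2 in DMSO, 80.5 to 187 in rapamycin, 114 to 234 with BA+DMSO and 309 to 350 with BA+rapamycin. Both this list and the ribosomal proteins thus had higher medians with rapamycin. The same held for fibroblast markers (0.27 without the challenge and 0.16 with it) and endothelial markers (0.39 and 0.07). Leukocyte markers were at 0.37 and -0.15. In the challenge 0 of 3 striated muscle markers tested were called, and 1 of 6 adipocyte markers tested was called higher. Both lists ranged widely within BA+DMSO. The adipocyte gene called in the challenge was Ucp1, which was well above background on 0 of 3 DMSO and 3 of 3 BA+DMSO arrays and passed the filter only through BA+DMSO. In the challenge under rapamycin, proliferation markers rose in 13 of 18 (median 2.85) and leukocyte markers in 7 of 13 (median 1.22). These proliferation rises again include Cdk1, Kif11, Top2a and Ccnb1, which passed the filter only through challenged groups. Of 10 smooth muscle markers 1 rose and 3 fell (median -0.51), and of 8 endothelial markers 2 rose and 2 fell. Fibroblast markers rose in 4 of 8 and erythroid markers in 3 of 4. Acta1 of striated muscle (-1.48) and Cidea of adipocytes (-2.61) were called lower. Of all genes, 19.8% were called higher and 22.9% lower there. The part of these cell types in the differences of the 40 genes and of the ribosomal proteins was not tested.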

How the data were processed

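The members and all gene lists were chosen with earlier results of these data known. Per the labels, RNA of 12 aortas was labelled with Cy3 and hybridised to 1-colour Agilent arrays. The authors deposited scanner files, read with Feature Extraction 10.7.1.1 per the file headers (9.5.1.1 in the submitters' processing notes), which hold a background-subtracted intensity on a linear scale that was not normalized between arrays. Per the file headers, flags (other columns of 0 and 1) mark outlier and well-above-background spots. The deposited matrix holds intensity that behaves as quantile normalized.

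Outlier spots were removed, log2 values of a probe's spots averaged and each array's 75th percentile subtracted. Probes entered the test where some group had a share of 0.5 or more of their spots well above background on each of its 3 arrays. limma 3.58.1 in R 4.3.3 fitted 1 mean per group over 12 arrays, two-sided, and the package data.table (1.17.8) read the files. Replicates were separate mice numbered in order of deposition, and their number limits the precision. Values on every array are given for the 3 called genes with the largest rise and fall per comparison (for rapamycin, the 3 largest differences each way) and the brightest gene of each role. Of the other biogenesis factors, up to 3 called rises and 3 called falls in the challenge are named, with differences only. The calculations were tested on simulated data. Ratios along genes were added after seeing the data.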

Additional observations from a re-analysis of the deposited data

How the results depend on the processing

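Main counts of called genes of the 40 were 4 (challenge), 0 and 0 (rapamycin with and without it), 14 (challenge under rapamycin) and 0 (interaction). Percentages in parentheses are the share of all genes called under the same setting. The challenge called 2 with normexp (25.2%), 0 without a filter (11.5%), 0 with slide as a fixed block (0.0599%) and 8 as a random block (37.8%), 0 from only its own groups (4.78%), 11 with array weights (46.9%), 2 with the median over probes (share not computed) and 0 by the study's rule (2.83%). Leaving out 1 array gave 0 (7.87% without DMSO replicate 2 and 11.7% without replicate 3) to 10 (39.4%). Rapamycin in challenged mice called 7 with array weights (25.9%) and without 1 array 0 (0.115% to 0.834%) to 16 (41%, without BA+DMSO replicate 2), and rapamycin alone 1 with array weights (1.98%). Its median of 0.00 was -0.061 with slide as a block and on slide 1, where both settings come down to the 1 rapamycin array of that slide against DMSO and have no check from a second array. The challenge under rapamycin called 6 with slide as a block (29.2%), 1 on slide 2 (12%), 1 with brightness as a covariate (6.91%), 0 by the study's rule (5.43%), and without 1 array 5 (24.2%, without rapamycin replicate 3) to 21 (58.3%, without BA+DMSO replicate 2). Its median of -0.10 became 0.0215 with quantile normalization, 0.0216 in the deposited matrix, 0.084 with the percentile over detected probes, -0.25 with normexp and 0.34 with brightness, where Imp3 (0.12), Rrp1b (-0.15) and Wdr74 (0.32) reversed. The interaction called 2 with array weights (3.42%) and without 1 array 0 (0% to 0.00499%) to 5 (11.2%, without BA+DMSO replicate 2). Its median of -0.16 was 0.0546 with brightness and -0.32 to -0.0018 without 1 array. The median of the challenge, 0.07, ran from -0.087 (without BA+DMSO replicate 3) to 0.2484 (brightness), and also turned negative with normexp (-0.0518) and slide as a block (-0.0328). That of rapamycin in challenged mice, -0.15, ran from -0.3515 (without BA+DMSO replicate 2) to 0.0371 (without replicate 3) and was 0.034 with brightness. The cause of these shifts was not tested. Single calls were kept in 321 of 450 tries, lost in 126 and reversed in 3. No paired analysis was possible because replicate numbers follow the order of deposition and the numbers in the titles repeat within a group. The number of arrays and the dim signal of the challenged arrays limit these results.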
